A study of Mus musculus with 26 samples.

Results

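Expression was compared across 26 whole mouse embryos at embryonic day 9.5, asking for each gene whether loss of *Traf7* from the entire embryo and loss from endothelium changed it by the same amount. All 26 libraries of the series entered, 1 library per embryo. The first contrast set 6 embryos with global knockout of *Traf7* (*Traf7* GLOko) against 6 wild-type embryos (WT). The second set 7 embryos with endothelium-specific knockout (*Traf7* ECko, *Traf7* fl/fl with *Tie2-Cre*) against 7 endothelium-specific heterozygotes (*Traf7* EChet), which also carry *Tie2-Cre* and have lost 1 copy of *Traf7* in the same cells. Global deletion was made with a Cre transgene driven by the adenoviral EIIa promoter in the early embryo. *Tie2-Cre* acts in early endothelium and in blood cells, so that deletion in the endothelial contrast concerns these 2 lineages. RNA came from whole embryos, so the effects of both contrasts are those of all tissues together. The contrasts share no embryo. Their controls differ in *Traf7* itself, and each contrast was deposited as a table of its own, so levels were not compared between the tables and only effects were. The unlike controls remain in a comparison of effects. Global loss is set against both copies of *Traf7*, and endothelial loss against 1 copy in the cells where Cre acts. The part of this in any result below cannot be told apart from that of the tissue.

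TRAF7 is a ubiquitin ligase of the TRAF family with WD40 repeats that binds the kinase MEKK3. In endothelium, shear stress from flowing blood acts through MEKK3, MEK5 and ERK5 on MEF2 transcription factors, which turn on *Klf2* and *Klf4*, transcription factors that keep the vessel wall quiescent. At this stage the heart has begun to pump and the embryo comes to depend on its circulation for oxygen, and cells short of oxygen raise glycolytic and other genes through hypoxia-inducible factors (HIF).

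The recovered reads in genes were 16662293 to 25364652 per library. At equal depth, 16826 (GLOko 1), 17012 (GLOko 6), 18628 (GLOko 2) and 18702 (ECko 3) genes were detected, against 19263 to 20441 in the other 22 libraries, so results are also given without GLOko 1, 2 and 6 and without GLOko 1, GLOko 6 and ECko 3. From sex-linked transcripts, 2 of 6 GLOko, 2 of 6 WT, 4 of 7 ECko and 1 of 7 EChet embryos were female. The mean log2 level of 25 cardiomyocyte markers lay far below that of the own controls in GLOko 1 (-4.35), WT 4 (-2.65), ECko 3 (-3.35) and ECko 4 (-3.08), whereas the 7 EChet embryos spanned -0.12 to 0.11. Fewer cells of a type and less RNA per cell cannot be told apart in whole embryos. In the labels, no number marks a litter or a shared batch, and p values measure the spread between embryos.

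The effect of each loss is given as a log2 difference of mutants from their own controls, on FPKM (fragments scaled by gene length and sequencing depth) to which 0.1 was added. The global effect minus the endothelial effect is called the difference here. It was tested for 17560 genes in 1 limma fit over all 26 embryos, with Benjamini-Hochberg adjustment over all genes, and a gene was called at an adjusted p of 0.05 or less. A positive difference means that a gene was higher after global loss, relative to its controls, than after endothelial loss.

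The targeted gene followed its labels. *Traf7* (ENSMUSG00000052752, mm10 17:24508562-24527938, minus strand) had 1.75 FPKM in the lowest, 2.52 in the median and 3.12 in the highest GLOko embryo, and 11.1, 19.6 and 20.6 FPKM in WT embryos. The groups did not overlap, and the GLOko mean was 13.2% of the WT mean. In ECko embryos it was 13.6 (lowest), 16.9 (median) and 20.4 (highest) FPKM against 18.8, 20.5 and 22.7 in EChet embryos, groups that overlapped, with an ECko mean at 84.6% of the EChet mean. The global effect was -2.85 ± 0.17 (SE, n = 6 and 6) and the endothelial effect -0.24 ± 0.08 (SE, n = 7 and 7), with an exact two-sided permutation p of 0.00216 and 0.00699, the first of which is the smallest that 6 embryos against 6 allow. The difference was -2.61 ± 0.18 (adjusted p = 1.7e-09 by limma), and *Traf7* was the only gene called under all 45 alternative fits.

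In all, 364 of 17560 genes (2.07%) differed between the losses, 185 with a positive difference (1.05% of genes) and 179 with a negative difference (1.02%). Nearly all of these were larger after global loss. For 358 genes the global effect was the larger in size, 179 of them higher and 179 lower in GLOko embryos, and for 6 the endothelial effect was the larger. By themselves, the contrasts called 1823 genes in GLOko embryos (10.4% of genes, 950 higher and 873 lower) and 17 in ECko embryos (0.0968%, 10 higher and 7 lower). Of the 364 genes, 320 were also called in GLOko embryos, 4 in ECko embryos, and 41 in neither contrast alone. No gene was called in both contrasts with opposite signs, by limma on FPKM or by limma-voom on recovered reads, although 221 of the 364 (60.7%) had estimates of opposite sign, which the choice of genes by a large difference favours.

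**Figure D1:**
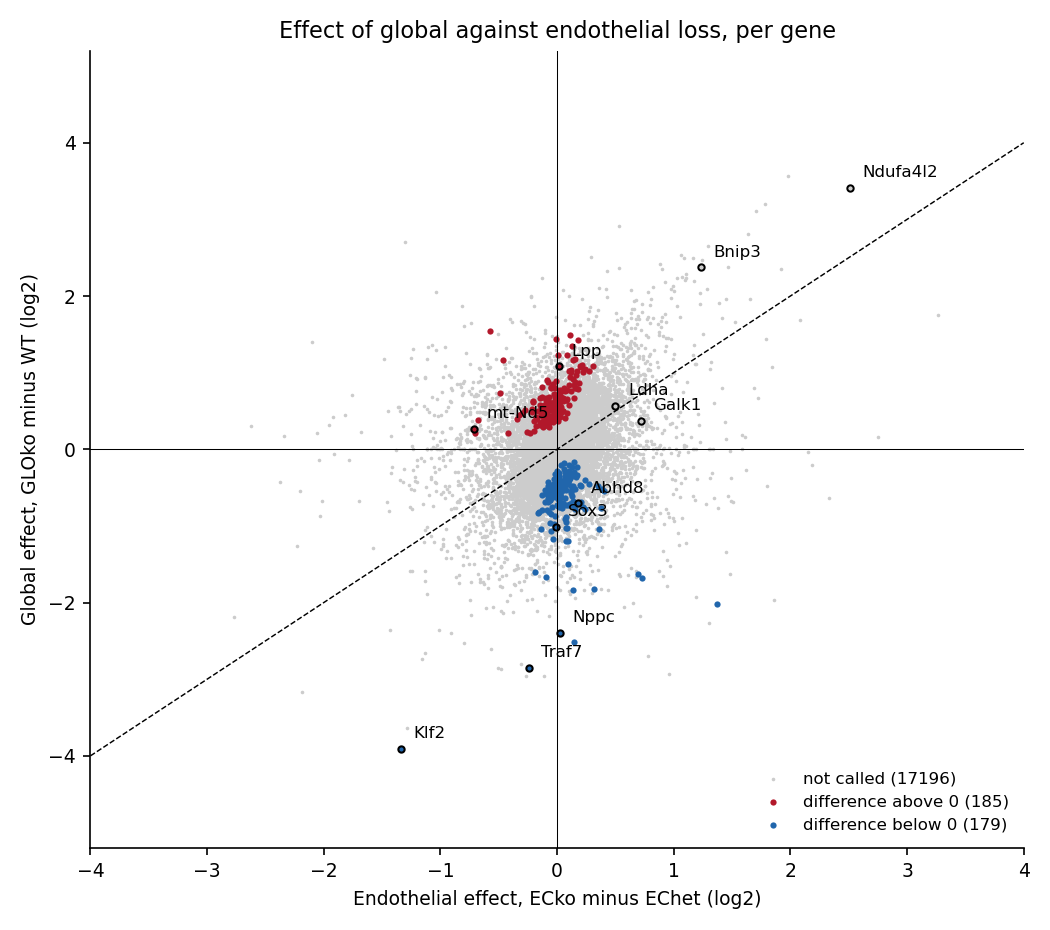
Log2 effect of endothelial loss (horizontal) and of global loss (vertical) for each of 17560 genes, with the 185 genes of called positive difference in red, the 179 of called negative difference in blue and equal effects on the dashed line. Called genes line up along the vertical axis near an endothelial effect of 0, with *Klf2* (-1.34 and -3.91) and *mt-Nd5* (-0.72 and 0.27) off it.

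Many differences lay close to the threshold. At an adjusted p of 0.1 or less 1254 genes passed, and the count of 364 became 207, 14, 53, 73 and 51 when WT 1, 2, 3, 4 or 5, respectively, was left out. It was 41, 118, 44, 59 and 43 without ECko 1, 2, 4, 5 and 6, and 793 and 775 without ECko 3 and ECko 7. It was 44, 209, 43, 48 and 44 without EChet 3, 4, 5, 6 and 7, and 609, 596, 1212 and 793 without GLOko 2, 3, 4 and 5. The share of positive differences, 50.8%, was 87.8% when libraries were scaled to a fixed total. Without GLOko 1, GLOko 2 and GLOko 6 together the count was 70, of which 37 were among the 364, and without GLOko 1, GLOko 6 and ECko 3 it was 513. The sign was steadier than the call. Of the 364 genes, 362 kept the sign of the difference in all of the 45 alternative fits in which they were tested. An unadjusted p under 0.05 was kept by 304 in all of those fits.

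*Klf2* (ENSMUSG00000055148, mm10 8:72319033-72321656, plus strand) fell in both losses and fell further after global loss. GLOko embryos had 0 (lowest), 0.31 (median) and 0.831 (highest) FPKM, from 0, 11 and 30 reads, and WT embryos 3.96, 4.99 and 6.12 FPKM. ECko embryos had 0.907, 1.53 and 2.40 FPKM, and EChet embryos 3.40, 4.07 and 5.37 FPKM. Neither pair of groups overlapped, and the mean of the mutants was 6.40% of the WT mean and 39.0% of the EChet mean. The global effect was -3.91 ± 0.42 (adjusted p = 0.00081) and the endothelial effect -1.34 ± 0.17 (adjusted p = 0.0096), with exact two-sided permutation p values of 0.00216 (n = 6 and 6) and 0.000583 (n = 7 and 7), each the smallest the design allows. The difference of -2.57 ± 0.45 (95% interval -3.49 to -1.65, adjusted p = 0.019) was called in 44 of 45 alternative fits, including each fit without 1 library and the fit without GLOko 1, GLOko 2 and GLOko 6 (-2.55), and was not called with a replicate block and a gene length correction together (adjusted p = 0.065). Since 1 GLOko embryo was at 0, its size depends on the constant added before taking logs, with -1.20 (adjusted p = 0.0062) when 1 was added and -3.40 (adjusted p = 0.039) when 0.01 was added. *Klf2* was the only gene called in both contrasts and in the difference.

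The 250 bases before the RefSeq start of *Klf2* are shown because MEF2 factors are known to act on the promoter of this gene. Capitals mark a match to the MEF2 consensus, which reads alike on both strands and occurred once, beginning 118 bases before the start, in GRCm38.p6 at chr8:72318812-72319061.
Klf2: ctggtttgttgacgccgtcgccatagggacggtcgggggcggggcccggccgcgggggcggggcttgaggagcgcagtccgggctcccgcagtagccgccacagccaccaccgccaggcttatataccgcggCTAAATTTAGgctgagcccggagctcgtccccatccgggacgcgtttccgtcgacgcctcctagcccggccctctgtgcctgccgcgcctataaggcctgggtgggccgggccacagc
Such a match was found in 1.6% of the 11706 tested genes with a window of this length.

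Other genes of the flow response divided between the contrasts. Of 18 tested genes, 3 were higher and 4 lower after global loss (5.41% and 4.97% of all genes were). *Klf2* alone was called (lower, as 0.0399% of all genes were) after endothelial loss. The difference was called for *Klf2* and *Nppc*, both negative (1.02% of all genes were). *Nppc*, which encodes C-type natriuretic peptide, had 0 (lowest), 0.101 (median) and 0.298 (highest) FPKM in GLOko and 0.341, 0.923 and 2.14 FPKM in WT embryos. These groups did not overlap in FPKM, but the highest GLOko and the lowest WT embryo had 6 reads each. In ECko embryos it was 0.201, 0.867 and 1.07 FPKM against 0.283, 0.613 and 1.15 in EChet embryos, with full overlap. Its effects were -2.39 ± 0.47 and 0.02 ± 0.36, and the difference -2.41 ± 0.60 (adjusted p = 0.039, 95% interval -3.65 to -1.17). With 2 GLOko embryos at 0 this size also depends on the constant, and it was -0.84 (adjusted p = 0.065) when 1 was added and -3.81 (adjusted p = 0.044) when 0.01 was added. The call was lost without any 1 of 16 libraries (GLOko 1 or 6, WT 1 to 5, ECko 1, 2, 4, 5 or 6, and EChet 3, 5, 6 or 7, adjusted p 0.054 to 0.075). It was also lost without GLOko 1, GLOko 2 and GLOko 6 together, and with a correction for gene length. In both of these fits *Klf2* was the only 1 of the 18 genes with a called negative difference. *Gja4*, the gap junction gene connexin 37 of arterial endothelium, fell after global loss (-1.21 ± 0.28, adjusted p = 0.02) with a difference of -0.98 that did not pass (adjusted p = 0.076). *Heyl*, a Notch target, did likewise (-1.67 ± 0.31 and -1.4 ± 0.45, adjusted p = 0.01 and 0.082). In the list of 17 arterial and Notch genes, *Heyl* was the only 1 called after global loss. Of these 17, 14 had a global effect above 0 (median 0.20), and none was called in the difference. At an unadjusted p under 0.05, 2 of the 17 had a positive and 1 a negative difference. *Klf4* had effects of -0.72 and 0.14, neither called, and a difference of -0.87 ± 0.41 (adjusted p = 0.22). *Aqp1*, the water channel of red cells and endothelium, had nearly equal effects of -0.78 and -0.91, neither of them called, and the 95% interval of its difference ran from -0.82 to 1.08.

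The kinases between TRAF7 and *Klf2* did not differ detectably. *Map3k3* (MEKK3), *Map2k5* (MEK5) and *Mapk7* (ERK5) had differences of -0.12, -0.10 and -0.34 (adjusted p = 0.64, 0.71 and 0.076), and none was called in either contrast. Of the 14 genes listed for the MEKK3 cascade, 2 were called in the difference, 1 in each direction (1.05% and 1.02% of all genes were). *Ccm2*, the scaffold of the cerebral cavernous malformation complex that restrains MEKK3, had 6.91 (lowest), 11.1 (median) and 11.9 (highest) FPKM in GLOko against 13.4, 15.2 and 17.3 in WT embryos, and 13.03, 13.9 and 16.1 in ECko against 12.7, 14.4 and 14.9 in EChet embryos. Its groups were separate in the global and overlapped in the endothelial contrast, with a difference of -0.61 ± 0.14 (adjusted p = 0.037). *Mef2c*, which encodes a MEF2 factor of heart and vessels, went the other way, with effects of 0.67 and -0.15 and a difference of 0.82 ± 0.22 (adjusted p = 0.047). Leaving out 1 of 12 libraries ended the call of *Ccm2* (WT 2 to 5, ECko 1, 4, 5 or 6, and EChet 3, 5, 6 or 7, adjusted p 0.055 to 0.070). For *Mef2c* 1 of 19 did so (GLOko 3, any WT or EChet embryo, and ECko 1, 2, 4, 5 or 6, adjusted p 0.051 to 0.085), and with a correction for gene length its difference was 0.49 (adjusted p = 0.2). The difference of *Ccm2* was not called with that correction, nor without GLOko 1, GLOko 2 and GLOko 6.

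Markers of the endothelium itself were not called in the difference. Of 29 markers, 5 were higher after global loss (17.2%, against 5.41% of all genes), none was called after endothelial loss (8 at an unadjusted p under 0.05, all higher, which is 27.6% against 8.07% of all genes) and none was called in the difference (4 at an unadjusted p under 0.05). Their medians were 0.17, 0.13 and 0.12 for the global effect, the endothelial effect and the difference, beside 0.01, 0.00 and 0.00 for all genes. The median difference was -0.05 without GLOko 2, -0.01 without GLOko 5 and 0.23 without GLOko 1, so that its sign rests on single embryos. Without GLOko 1 and WT 4 no marker was called after global loss, while 340 of all 17560 genes were called higher and 181 lower. *Kdr*, the main VEGF receptor, had effects of 0.76 (adjusted p = 0.021) and 0.20, and *Flt4*, the receptor for VEGF-C, 0.67 (adjusted p = 0.02) and 0.22, with differences that did not pass. *Pecam1*, an adhesion molecule of endothelial junctions, had effects of 0.74 and 0.22, neither called. *Cldn5* went the other way, with the GLOko mean at 83.6% of the WT mean and the ECko mean at 112% of the EChet mean. Its difference was -0.49 to -0.31 when 1 library was left out. Of the 29 markers, 10 had a global effect below 0 and 14 a difference below 0. None of 20 primitive red cell genes and none of 14 macrophage and blood progenitor genes was called in the difference (1 and 3 at an unadjusted p under 0.05).

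**Figure D2:**
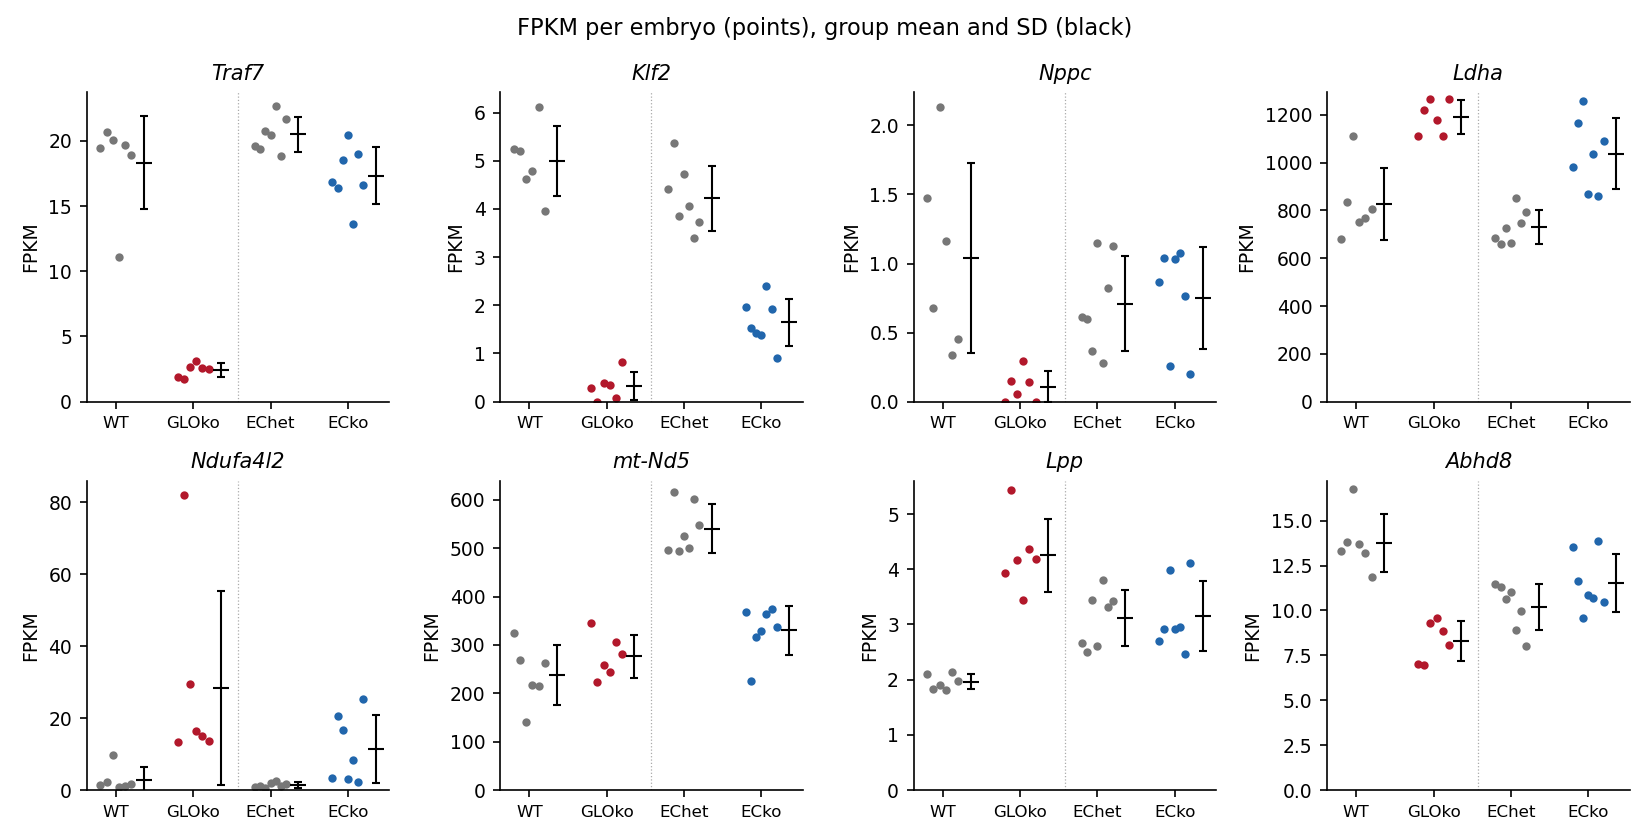
FPKM of 8 genes in each of the 26 embryos (points), with the group mean and SD in black (n = 6 WT, 6 GLOko, 7 EChet and 7 ECko) and a dotted line between the 2 tables. *Traf7*, *Nppc*, *Lpp* and *Abhd8* separate GLOko from WT but not ECko from EChet embryos, *Klf2* separates both pairs, and *mt-Nd5* separates only ECko from EChet. For *Nppc*, the highest GLOko and the lowest WT embryo had 6 reads each.

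Genes that changed in the same direction in both contrasts, each called, belonged mostly to glycolysis and the response to oxygen shortage. The genes called in both contrasts with the same sign numbered 7, of which 6 were higher. *Ldha* (lactate dehydrogenase), *Pgk1*, *Pkm*, *Tpi1* and *Pfkl* encode glycolytic enzymes, and *Higd1a* a hypoxia-induced protein of mitochondria, and the remaining gene was *Klf2*. *Ldha* had 1111 (lowest), 1199 (median) and 1265.5 (highest) FPKM in GLOko and 679, 789 and 1113 in WT embryos, and 859, 1036 and 1257 in ECko against 658, 727 and 851 in EChet embryos. It overlapped between GLOko and WT only through the highest WT embryo, and not at all between ECko and EChet. Its effects were 0.57 ± 0.11 (adjusted p = 0.011) and 0.50 ± 0.09 (adjusted p = 0.043), and the difference 0.07 ± 0.14, with a 95% interval of -0.22 to 0.35. *Pgk1* had effects of 0.91 and 0.69 and a difference of 0.22 with an interval of -0.24 to 0.67. *Pkm*, *Tpi1*, *Pfkl* and *Higd1a* had differences of -0.03 (interval -0.29 to 0.24), 0.10 (-0.28 to 0.47), 0.12 (-0.25 to 0.49) and -0.23 (-0.62 to 0.17).

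The windows before the starts of *Pgk1* and *Ldha* are shown as examples of such genes, since the core of the HIF site, ACGTG (or CACGT, its reverse complement), is in each. Capitals mark these letters on either strand, and CACGTG counts as overlapping matches on both strands. There were 2 matches in *Pgk1* (chrX:106186850-106187099, plus strand) and 5 in *Ldha* (chr7:46845554-46845803, plus strand), in the RefSeq windows of GRCm38.p6.
Pgk1: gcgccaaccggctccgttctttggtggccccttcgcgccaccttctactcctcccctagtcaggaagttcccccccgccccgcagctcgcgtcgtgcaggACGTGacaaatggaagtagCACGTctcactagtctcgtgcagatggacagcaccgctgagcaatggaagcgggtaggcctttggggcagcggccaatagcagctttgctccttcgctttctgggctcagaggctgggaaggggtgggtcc
Ldha: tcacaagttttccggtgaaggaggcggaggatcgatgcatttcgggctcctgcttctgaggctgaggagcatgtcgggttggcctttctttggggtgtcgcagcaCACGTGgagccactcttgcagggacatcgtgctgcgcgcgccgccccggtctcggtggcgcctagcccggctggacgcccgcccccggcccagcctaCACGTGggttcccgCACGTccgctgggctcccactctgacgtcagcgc
The letters were found in 13 of the 24 hypoxia-response genes and 7 of the 19 glycolysis genes with a window, in 2 of the 7 genes called in both contrasts, and in 21.3% of all 11706 tested genes with a window. Among genes called in the difference, 37 of 143 with a positive and 32 of 130 with a negative difference held them.

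Across the list of 32 hypoxia-response genes, 29 rose after global loss (5.41% of all genes did), 1 rose after endothelial loss (0.0569% of all genes) and none was called in the difference (13 at an unadjusted p under 0.05, all positive, as 10.1% of all genes were). All 32 endothelial estimates were above 0, and 26 of them had an unadjusted p under 0.05, as 8.07% of all genes had in this direction. The median effect was 1.67 after global and 0.79 after endothelial loss, and the median difference 0.89. The mean of the list per embryo, relative to the own controls, was 0.86 (lowest), 1.59 (median) and 2.75 (highest) in GLOko, -0.01, 0.78 and 1.76 in ECko, and -0.29, -0.14 and 0.81 in WT embryos. ECko 4 (-0.01) and ECko 6 (0.00) were at the level of EChet embryos (-0.09 to 0.15), the other 5 ECko embryos were above it (0.47 to 1.76), and WT 3 (0.81) stood above the other 5 WT embryos. *Ndufa4l2*, a HIF target of the respiratory chain, had 13.2 (lowest), 15.7 (median) and 81.9 (highest) FPKM in GLOko against 0.879, 1.71 and 9.85 in WT embryos, and 2.38, 8.48 and 25.3 in ECko against 0.61, 1.13 and 2.56 in EChet embryos. Its effects were 3.41 ± 0.57 (adjusted p = 0.0065) and 2.51 ± 0.55 (adjusted p = 0.11), with a difference of 0.90 whose interval ran from -0.81 to 2.62. *Bnip3*, an inducer of mitochondrial removal, had effects of 2.37 ± 0.26 and 1.24 ± 0.44 (adjusted p = 0.00081 and 0.24) and a difference of 1.14 (interval 0.02 to 2.26, adjusted p = 0.23). Without GLOko 1, GLOko 2 and GLOko 6 the median difference of the list was 0.44. In that fit 22 of its genes were called higher after global loss, as were 977 of all 17560 genes. These counts were 17 and 340 without GLOko 1 and WT 4, and 17 and 295 with detected genes as a covariate. Without GLOko 1, GLOko 6 and ECko 3 no gene of the list was called after endothelial loss, and 3 of all genes were.

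In the glycolysis list of 20 genes, 16 rose after global loss and 5 after endothelial loss (5.41% and 0.0569% of all genes did), none was called in the difference (5 at an unadjusted p under 0.05), and the medians of the effects were 0.91 and 0.61. Without GLOko 1 and WT 4, 8 of the 20 were called higher after global loss, as were 340 of all 17560 genes. With detected genes as a covariate these counts were 11 and 295. *Pfkp*, a phosphofructokinase, had the largest global effect of the list (2.42 ± 0.36) and an endothelial effect of 0.88 ± 0.32, with a difference of 1.54 that did not pass (adjusted p = 0.086). The 5 endothelial calls were *Ldha*, *Pgk1*, *Pkm*, *Tpi1* and *Pfkl*, and each was lost without any 1 of ECko 1, 2, 3, 5 and 7 or of EChet 1, 2, 3, 4, 6 and 7, and that of *Tpi1* also without EChet 5 (adjusted p 0.063 to 0.13). With sex as a covariate, no gene of the entire table was called after endothelial loss, and *Ldha* had an endothelial effect of 0.50 as before (adjusted p = 0.14).

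*Galk1*, the galactokinase that opens galactose use, was called only after endothelial loss. It had 96.1 (lowest), 122 (median) and 158 (highest) FPKM in ECko against 63.2, 74.4 and 79.0 in EChet embryos, which did not overlap, and 87.9, 138 and 166 in GLOko against 86.5, 96.0 and 161 in WT embryos, which did. The endothelial effect was 0.72 ± 0.09 (adjusted p = 0.0096) and the global effect 0.37 ± 0.17 (adjusted p = 0.16). The difference of -0.34 ± 0.19 did not pass (adjusted p = 0.32, interval -0.74 to 0.06), so that the effects were not shown to differ. WT 3 held the value of 161 FPKM, and the next highest WT embryo 105 FPKM.

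**Figure D3:**
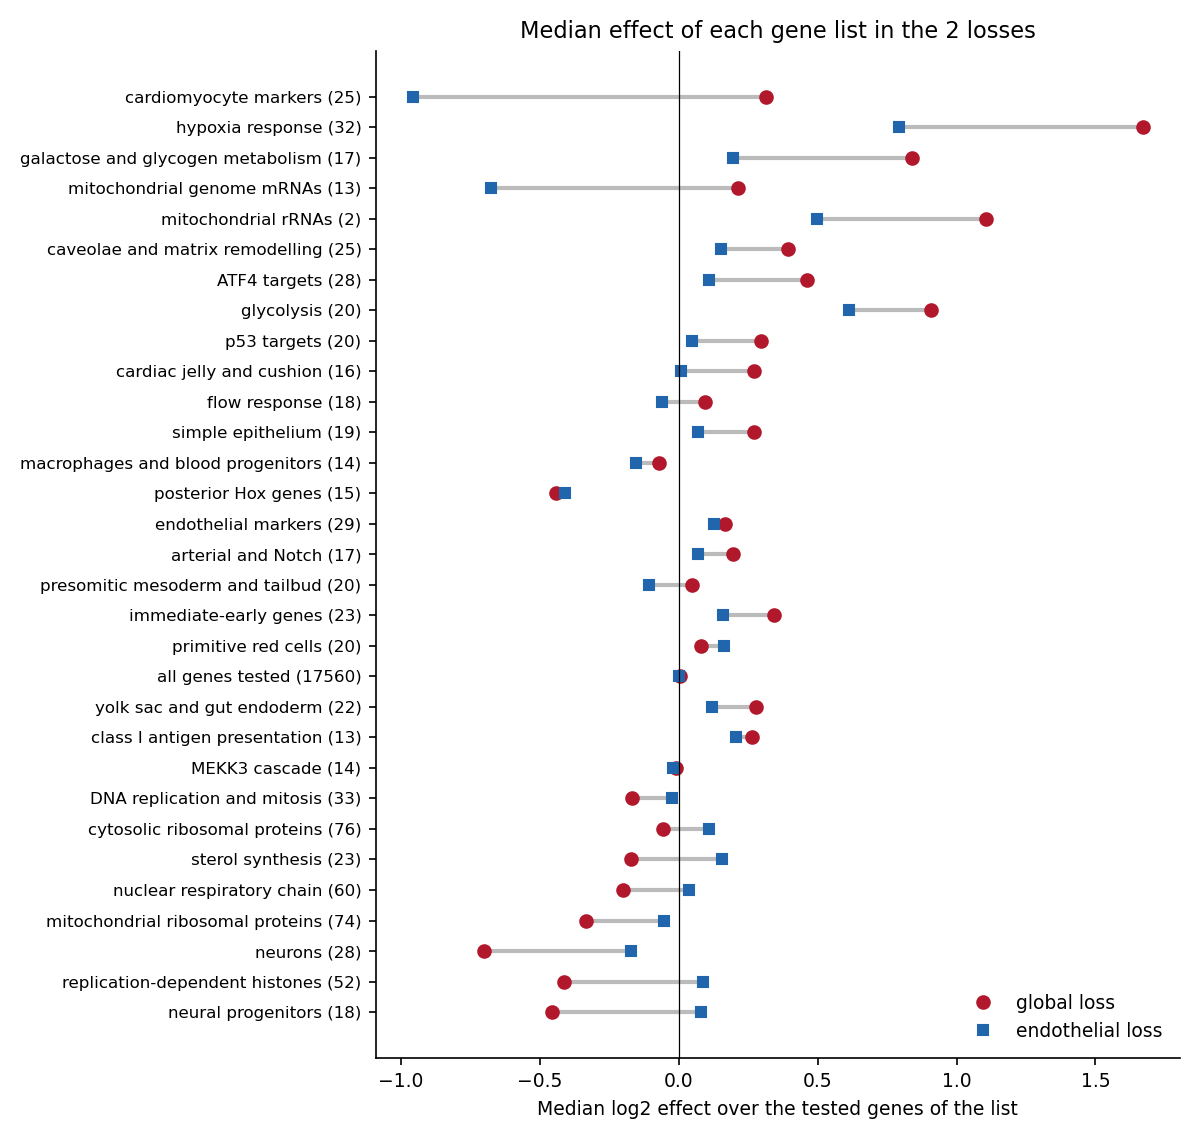
Median log2 effect of global loss (red circles) and endothelial loss (blue squares) over the tested genes of each list, with the number of genes in parentheses, ordered by the median difference. Hypoxia and glycolysis lie to the right in both losses, whereas cardiomyocyte markers (0.31 and -0.96) and mitochondrial genome mRNAs (0.21 and -0.68) lie on opposite sides of 0.

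Of the 6 genes with a larger endothelial effect, 3 were mRNAs encoded by the mitochondrial genome. Of 13 mRNAs, all subunits of the respiratory chain or of ATP synthase, 4 fell after endothelial loss, as 0.0399% of all genes did (*mt-Nd5*, *mt-Nd6*, *mt-Co1* and *mt-Nd4*). None was called after global loss (2 at an unadjusted p under 0.05), and 3 were called in the difference, all positive (1.05% of all genes were). At an unadjusted p under 0.05, 11 of the 13 fell after endothelial loss, against 6.36% of all genes, and 1 rose, against 8.07% of all genes. The endothelial estimates of the 13 ran from -0.78 to 0.55, with 2 above 0. Their median effects were -0.68 after endothelial and 0.21 after global loss. *mt-Nd5*, a subunit of complex I, had 226 (lowest), 337 (median) and 374 (highest) FPKM in ECko against 495, 525 and 616 in EChet embryos, without overlap, and 224, 270 and 346 in GLOko against 140, 239 and 324 in WT embryos, with overlap. Its endothelial effect was -0.72 ± 0.10 (adjusted p = 0.0096), its global effect 0.27 ± 0.17 (adjusted p = 0.33), and the difference 0.99 ± 0.20 (adjusted p = 0.025, interval 0.58 to 1.40), called without each single library. *mt-Co1*, the catalytic subunit of cytochrome oxidase, had 1063, 1701 and 1927 FPKM in ECko against 2208, 2419 and 2925 in EChet embryos, and 1050, 1491 and 1813 in GLOko against 765, 1298 and 1712 in WT embryos. Its difference was 0.92 ± 0.22 and that of *mt-Nd6* 1.06 ± 0.26 (adjusted p = 0.037 and 0.039), and these calls ended without any 1 of WT 2 to 5, ECko 1, 2, 4, 5 and 6, and EChet 3, 5, 6 and 7, and for *mt-Nd6* also GLOko 1, GLOko 6, EChet 2 and EChet 4 (adjusted p 0.051 to 0.073). Their endothelial calls ended without any 1 of ECko 1, 3, 5 and 7 and EChet 1, 2, 4, 6 and 7, and for *mt-Co1* also EChet 3 (adjusted p 0.054 to 0.11). Without GLOko 1, GLOko 2 and GLOko 6, none of the 13 was called in the difference (*mt-Nd5* 0.95, adjusted p = 0.056).

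The rRNAs of the same genome lay above 0 in both contrasts. *mt-Rnr1*, the small ribosomal RNA, had 180 (lowest), 192 (median) and 248 (highest) FPKM in GLOko against 64.7, 77.8 and 139 in WT embryos, and 122, 140 and 227 in ECko against 86.0, 97.2 and 112 in EChet embryos. Both pairs of groups were separate. The global effect was 1.32 ± 0.17 (adjusted p = 0.0016) and the endothelial effect 0.75 ± 0.15 (adjusted p = 0.085), and the difference did not pass (0.57, adjusted p = 0.16). *mt-Rnr2*, the large ribosomal RNA, had effects of 0.89 (adjusted p = 0.014) and 0.24. Reads of mitochondrial genes can also match nuclear copies, and how the authors' counting divided them was not given in the sources used here. Mitochondrial genes held 2.70% to 3.35% of FPKM in EChet embryos, 1.28% to 2.40% in ECko, 0.941% to 1.87% in WT and 1.39% to 2.17% in GLOko embryos, and the ECko and EChet ranges did not overlap.

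**Figure D4:**
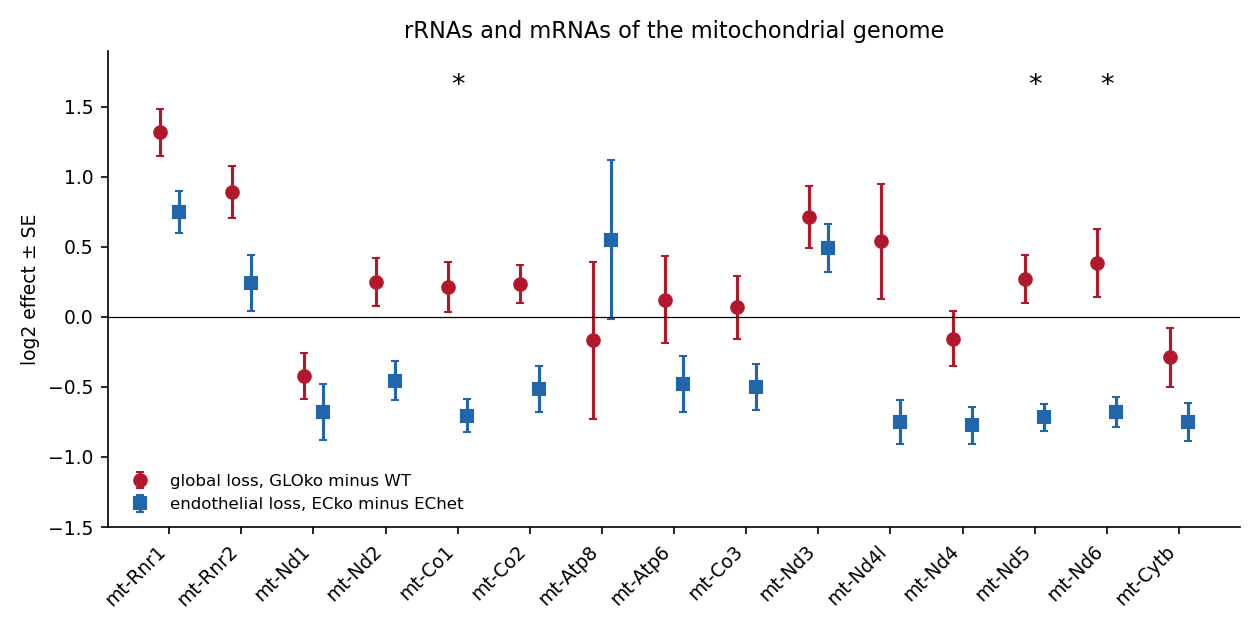
Log2 effect ± SE of global loss (red circles, n = 6 and 6) and endothelial loss (blue squares, n = 7 and 7) for the 2 rRNAs and 13 mRNAs of the mitochondrial genome, with a star where the difference was called. Effects on *mt-Rnr1* were positive in both (1.32 and 0.75), and the starred *mt-Co1*, *mt-Nd5* and *mt-Nd6* were negative after endothelial and positive after global loss.

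Some nuclear genes for the same machinery fell after global loss. Of 60 nuclear genes of the respiratory chain, 11 were lower after global loss (4.97% of all genes were). None was called after endothelial loss (8 at an unadjusted p under 0.05, 6 of them higher, against 8.07% of all genes). A negative difference was called for 3 (1.02% of all genes). These were *Ndufa2* of complex I, *Uqcr11* of complex III and *Cox5a* of cytochrome oxidase, with differences of -0.64 ± 0.14, -0.97 ± 0.24 and -0.49 ± 0.13 (adjusted p = 0.028, 0.039 and 0.046). *Ndufa2* had 42.7 (lowest), 54.6 (median) and 61.0 (highest) FPKM in GLOko and 64.8, 70.0 and 78.2 in WT embryos, and 51.8, 64.8 and 88.7 in ECko against 47.6, 60.3 and 62.4 in EChet embryos, so the groups were separate in the global contrast and overlapped in the other. Of 74 mitochondrial ribosomal proteins, 20 were lower and 1 higher after global loss (4.97% and 5.41% of all genes were). None was called after endothelial loss (10 at an unadjusted p under 0.05, 8 of them lower, against 6.36% of all genes). A negative difference was called for 6 (1.02% of all genes), and the median global and endothelial effects were -0.33 and -0.05. *Mrpl14* had the effects -0.55 and 0.40, neither called, and a difference of -0.95 ± 0.22 (adjusted p = 0.037), with 10.5, 21.4 and 26.5 FPKM in GLOko against 24.7, 27.2 and 34.6 in WT embryos. *Mrpl55* (-0.58) and *Mrpl28* (-0.52) had differences at the same adjusted p. Without any 1 of WT 2, WT 3, WT 5, ECko 1, EChet 5 and EChet 7 the difference of *Ndufa2* was not called (adjusted p 0.054 to 0.062). The differences of *Uqcr11*, *Cox5a*, *Mrpl14*, *Mrpl28* and *Mrpl55* were each lost without any 1 of 12 to 18 libraries, always including WT 2 to 5, ECko 1, 4, 5 and 6, and EChet 3, 5, 6 and 7 (adjusted p 0.051 to 0.082). The genes of both groups are short, with a median length of 1523 and 2394 bases against 3563 for all genes. With a correction for gene length, or without GLOko 1, GLOko 2 and GLOko 6, no gene of either group was called in the difference.

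Among genes with the smallest p and a positive difference, most rose after global loss and hardly moved after endothelial loss. *Lpp*, a LIM protein of focal adhesions, had 3.44 (lowest), 4.18 (median) and 5.43 (highest) FPKM in GLOko against 1.82, 1.94 and 2.14 in WT embryos, and 2.46, 2.93 and 4.11 in ECko against 2.50, 3.32 and 3.80 in EChet embryos. Its groups were separate in the global contrast and overlapped in the endothelial, with effects of 1.09 ± 0.12 and 0.02 ± 0.13 and a difference of 1.07 ± 0.18 (adjusted p = 0.013). *Bmpr2*, a receptor of bone morphogenetic proteins, had 4.11, 4.80 and 5.98 FPKM in GLOko against 2.75, 2.96 and 3.74 in WT embryos, effects of 0.68 and -0.13, and a difference of 0.81 ± 0.15 (adjusted p = 0.019). *Taok1*, a kinase, *Rlim*, a ubiquitin ligase, *Ank3*, which anchors membrane proteins to the cytoskeleton, *Fndc3b*, *Tmem245*, *Ppp2r3a*, a phosphatase subunit, *Tead1*, a transcription factor of the Hippo pathway, and *Mpp5*, a cell polarity protein, had differences of 0.48 to 0.90, each called with an adjusted p of 0.019 to 0.025. Without WT 2, *Tmem245*, *Ppp2r3a*, *Tead1* and *Mpp5* were just past the threshold (adjusted p 0.050 to 0.054). With a correction for gene length, only 4 positive differences were called over all genes. Those of *Rlim* and *mt-Nd5* were among them, and that of *Lpp* was not.

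Among genes with a negative difference, *Abhd8* had the smallest p after *Traf7*. It had 6.98 (lowest), 8.46 (median) and 9.58 (highest) FPKM in GLOko against 11.9, 13.5 and 16.7 in WT embryos, and 9.56, 10.9 and 13.9 in ECko against 8.01, 10.6 and 11.5 in EChet embryos. Its effects were -0.71 ± 0.11 and 0.18 ± 0.10, and the difference was -0.88 ± 0.14 (adjusted p = 0.013). *Pcbp4*, an RNA-binding protein, had 49.3, 65.8 and 80.0 FPKM in GLOko against 96.3, 110 and 113 in WT embryos, and means of 95.4 ± 9.88 and 93.5 ± 6.54 (SD, n = 7 each) in ECko and EChet embryos, with a difference of -0.71 ± 0.13 (adjusted p = 0.019). *Abhd8* and *Pcbp4* were separate between GLOko and WT embryos, overlapped between ECko and EChet, and were called in 44 of 45 alternative fits. *Fam89a* (-1.11), *Ppp1r35*, a centrosomal phosphatase subunit (-0.82), *R3hcc1* (-0.74), *Meis3*, a homeobox factor (-0.72), *Twf2*, an actin-binding twinfilin (-0.61), and *Id3*, an inhibitor of basic helix-loop-helix factors and a target of bone morphogenetic proteins (-0.48), were called too, with adjusted p values of 0.019 to 0.024. Of these, *R3hcc1*, *Twf2* and *Id3* were just past the threshold without WT 2 (adjusted p 0.050 to 0.054).

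The genes of positive and negative difference also differed in length. Their median gene length was 10292 and 2684 bases, against 3563 for all genes, and the median GC content of their longest transcripts 44.7% and 56.1%, against 49.9%. With genes in 10 equal groups by length, the median global effect ran from -0.12 in the second shortest group to 0.22 in the longest, and the median endothelial effect from 0.04 to -0.02. The longest group held 114 of the 185 genes with a positive difference and 1 of the 179 with a negative one. Per embryo, the correlation across genes of the deviation from the own control mean with length was 0.10 to 0.27 (Spearman) in GLOko, -0.11 to 0.09 in WT, -0.12 to 0.12 in ECko and -0.17 to 0.12 in EChet embryos, and it is a description, since genes of 1 embryo share a library. With a correction for gene length in each embryo, 14 genes were called, 4 positive and 10 negative, among them *Traf7* (-2.65), *Klf2* (-2.42), *mt-Nd5* (1.13), *Abhd8* (-0.86), *Pcbp4* (-0.69) and *Rlim*, and *Lpp* was not (0.65, adjusted p = 0.059). The part of gene length in the differences was not tested beyond this.

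**Figure D5:**
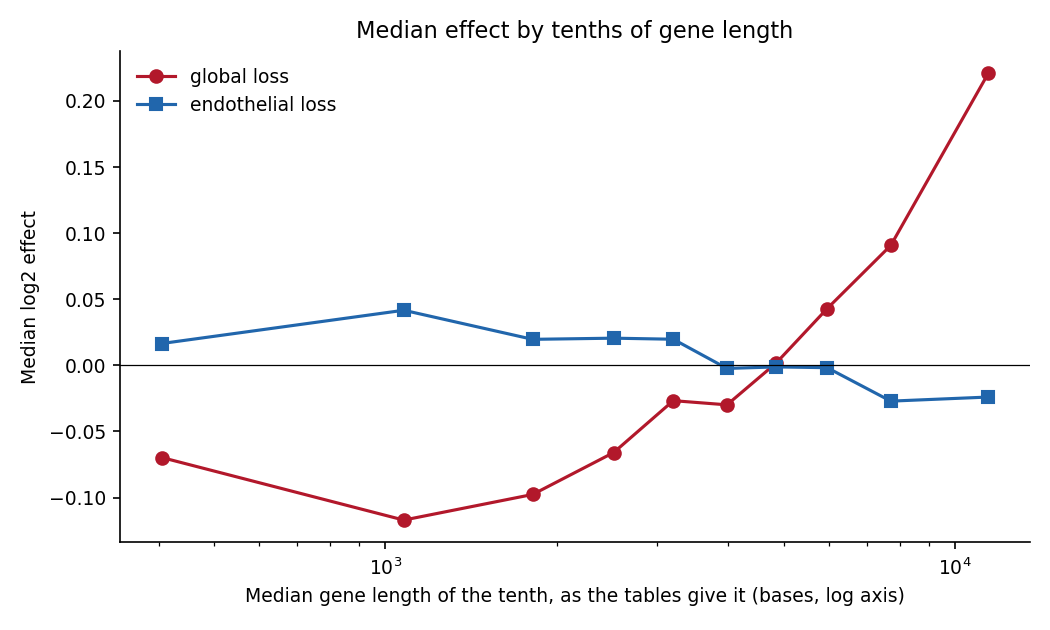
Median log2 effect of global loss (red) and endothelial loss (blue) over genes in 10 groups of equal size by gene length, against the median length of each group in bases (log axis), with 1756 genes in each. The global effect rises to 0.22 in the longest group, while the endothelial effect stays between -0.03 and 0.04.

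Cardiac genes varied widely within GLOko, WT and ECko embryos. None of 25 cardiomyocyte markers was called in any of the 3 tests (at an unadjusted p under 0.05, none after global loss, 3 lower after endothelial loss and 4 with a positive difference), although their median effects were 0.31 and -0.96 and 24 of the 25 differences were positive. *Ttn*, the giant spring of the sarcomere, *Slc8a1*, the sodium-calcium exchanger, and *Ryr2*, the calcium release channel, had differences of 1.36, 2.05 and 1.59 (adjusted p = 0.15, 0.14 and 0.2). The embryos low in these markers (GLOko 1, WT 4, ECko 3 and ECko 4) fall in 3 of the 4 groups, and the median difference of 1.46 was 0.86 without WT 4, 2.33 without GLOko 1 and 1.95 without GLOko 1, GLOko 6 and ECko 3, the last with 2 of the 25 called. In the list for cardiac jelly and cushions, *Adamts9*, a protease that cuts versican, had 4.41 (lowest), 5.98 (median) and 7.42 (highest) FPKM in GLOko against 2.58, 2.91 and 3.34 in WT embryos, and 2.88, 4.03 and 6.18 in ECko against 3.35, 3.50 and 4.80 in EChet embryos. It rose after global loss without overlap (1.02 ± 0.14), was 0.10 ± 0.14 after endothelial loss and had a difference of 0.92 ± 0.20 (adjusted p = 0.034), which was lost without any 1 of WT 2, 3 and 5, ECko 1, 4, 5 and 6, and EChet 3, 5 and 6 (adjusted p 0.056 to 0.064). With a correction for gene length, no gene of this list was called in the difference. *Vcan*, versican itself, had a similar difference of 0.84 ± 0.24 that did not pass (adjusted p = 0.059).

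Some neural genes fell after global loss. Of 18 neural progenitor genes, 4 fell after global loss (4.97% of all genes did) and none was called after endothelial loss (2 at an unadjusted p under 0.05, both higher). *Sox3* was the one called in the difference, in the negative direction (1.02% of all genes were). *Sox3*, a transcription factor of neural progenitors, had 13.9 (lowest), 21.9 (median) and 32.2 (highest) FPKM in GLOko against 38.6, 44.3 and 52.1 in WT embryos, which did not overlap, and 24.9, 50.3 and 58.5 in ECko against 42.3, 46.3 and 52.3 in EChet embryos, which did. Its effects were -1.01 ± 0.20 and -0.01 ± 0.15, and its difference -1.0 ± 0.26 (adjusted p = 0.044) was lost without GLOko 6, any WT embryo, ECko 1, 2, 4, 5 or 6, or any EChet embryo but EChet 2 (adjusted p 0.052 to 0.078). The call was also lost without GLOko 1, GLOko 2 and GLOko 6 together, and with a correction for gene length. *Hes5*, a Notch target, had effects of -1.01 (adjusted p = 0.021) and -0.03. Of 28 neuronal genes, 5 fell after global loss (4.97% of all genes did), with a median effect of -0.70. Without GLOko 1, GLOko 2 and GLOko 6, 17 did (1018 of all 17560 genes did), with a median effect of -0.99. Of the 28, none was called after endothelial loss (1 at an unadjusted p under 0.05, lower) or in the difference (4 at an unadjusted p under 0.05, all negative, against 10.9% of all genes), and *Neurog2*, which specifies neurons, had a difference of -1.01 (adjusted p = 0.077).

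Of 33 genes of DNA replication and mitosis, 4 rose and 5 fell after global loss (5.41% and 4.97% of all genes did), and 3 had a positive and 4 a negative difference (1.05% and 1.02% of all genes did). With a gene length correction, without GLOko 1, GLOko 2 and GLOko 6, or without GLOko 1 and WT 4, none of the 33 was called in the difference. *Cenpf* and *Cenpe*, which encode long proteins of the kinetochore, had differences of 0.55 and 0.53 (adjusted p = 0.026 and 0.037), and *Aurkb*, the mitotic kinase Aurora B, one of -0.31 (adjusted p = 0.036), with endothelial effects of 0.02, 0.02 and 0.15. Genes with a larger endothelial effect included, apart from the mitochondrial mRNAs, *Ccdc88a*, an actin-binding protein of cell migration, and *Rc3h2*, an RNA-binding protein. *Ccdc88a* had 5.22 (lowest), 5.93 (median) and 6.87 (highest) FPKM in ECko against 6.61, 7.13 and 8.21 in EChet embryos, effects of -0.26 ± 0.07 and 0.23 ± 0.10, neither called, and a difference of 0.49 ± 0.11 (adjusted p = 0.037). *Rc3h2* had effects of -0.42 and 0.21 and a difference of 0.63 ± 0.16 (adjusted p = 0.039). The call of *Cenpf* ended without WT 2, WT 5 or ECko 1 (adjusted p 0.050 to 0.054). Those of *Cenpe*, *Aurkb*, *Ccdc88a* and *Rc3h2* ended without any 1 of 12 to 16 libraries, always including WT 2, 3 and 5, ECko 1, 2, 4, 5 and 6, and EChet 3, 5, 6 and 7 (adjusted p 0.052 to 0.073).

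Because the contrasts share no embryo, the genes called in one could be looked up in the other. Of the 950 genes higher after global loss, 82.9% had an endothelial effect above 0, against 50.4% of all genes. Of the 950, 272 had an unadjusted p under 0.05 in the same direction (8.07% of all genes did), with 6 in the opposite one (6.36% of all genes). Their median effect was 0.66 after global and 0.13 after endothelial loss. Of the 873 genes lower after global loss, 78.6% had an endothelial effect below 0, against 49.6% of all genes, with medians of -0.56 and -0.08. At an unadjusted p under 0.05 there were 116 in the same and 5 in the opposite direction (6.36% and 8.07% of all genes). The reverse lookup gave the same sign for 9 of the 10 genes higher and 4 of the 7 lower after endothelial loss. Across all genes the effects correlated with r = 0.28 (Spearman rho = 0.31), a description over genes, which are not independent.

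The SE of a gene was larger after global than after endothelial loss, with medians of 0.20 and 0.12. Of the 1823 genes called after global loss, 1503 were not called in the difference, and for these a smaller endothelial effect was not shown.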

How the data were processed

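RNA was extracted from whole embryos freed of yolk sac, 1 library per embryo, and sequenced on an Illumina platform. The values are FPKM per gene, deposited by the authors as 1 table for each contrast, with 54532 genes in both. The submitters' notes name STAR and mm10, and which of the study's listed tools made the tables, with its version and annotation, was not given in the sources used here. FPKM are not counts, so limma replaced the study's DESeq2. The recovered reads (all values within 0.01 of whole numbers) set the depth of 16662293 to 25364652 reads per library and entered limma-voom as an alternative.

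Tables were joined by gene ID. FPKM, scaled by median-of-ratios factors, were tested as log2 with 0.1 added to the deposited values so scaled, for 17560 genes with a mean of at least 0.1 FPKM, by limma 3.58.1 in R 4.3.3 with trend and robust options. The difference was fitted over all 26 libraries, each effect within its own table. Exact permutation tests used SciPy 1.17.1. The fit was tested on simulated data. The text names genes from those that the study names, the 10 genes of smallest p in each direction of the difference (sex-linked and unnamed gene models left out), the 5 of smallest p with a larger endothelial effect, up to 10 genes called with the same sign in both contrasts and the 3 genes of smallest p in each of 31 lists. Members and lists were chosen with earlier results of these data known. Alternatives numbered 45, of which 2, both with a gene length correction, were chosen after seeing the data. Reads of near-identical copies and of overlapping genes are uncertain, since the counting is not stated to use strand. Some results that the naming rule covers are not reported here.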

Additional observations from a re-analysis of the deposited data

Results flagged for a closer look

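The effect of global loss differed from that of endothelial loss, by the limma test of the difference itself, in 364 genes. Among the genes named above, the log2 difference, global minus endothelial, was positive for *mt-Nd5* (0.99), *mt-Co1* (0.92), *mt-Nd6* (1.06), *Lpp* (1.07), *Bmpr2* (0.81), *Adamts9* (0.92), *Mef2c* (0.82), *Taok1* (0.71), *Rlim* (0.67), *Fndc3b* (0.75), *Ank3* (0.71), *Tmem245* (0.90), *Ppp2r3a* (0.72), *Tead1* (0.59), *Mpp5* (0.48), *Cenpf* (0.55), *Cenpe* (0.53), *Ccdc88a* (0.49) and *Rc3h2* (0.63). It was negative for *Traf7* (-2.61), *Klf2* (-2.57), *Nppc* (-2.41), *Abhd8* (-0.88), *Pcbp4* (-0.71), *Id3* (-0.48), *Ccm2* (-0.61), *Sox3* (-1.0), *Mrpl14* (-0.95), *Ndufa2* (-0.64), *Uqcr11* (-0.97), *Cox5a* (-0.49), *Mrpl55* (-0.58), *Mrpl28* (-0.52), *Fam89a* (-1.11), *Ppp1r35* (-0.82), *Meis3* (-0.72), *Twf2* (-0.61), *R3hcc1* (-0.74) and *Aurkb* (-0.31).

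Single embryos lay far from the others of their group (by Dixon's test on FPKM) in 9 of the 88 groups of values examined, where chance alone gives about 1 in 20. *Traf7* was 11.1 FPKM in WT 4, *Pgk1* 1770 in GLOko 2 and 963 in WT 3, and *Galk1* 161 in WT 3 and 63.2 in EChet 7. *mt-Nd5* and *mt-Nd6* were 226 and 227 FPKM in ECko 2, *Pcbp4* was 80.3 in EChet 7 and *Sox3* 24.9 in ECko 7.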

How the results depend on the processing

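Of the 364 called differences, 2 changed sign under 1 or more of the 45 alternative fits, neither of them in a gene named above. Of the differences given above that were not called, those of *Aqp1*, *Map3k3* and *Pkm* and the median of the endothelial markers also changed sign. Counts are given as genes with a called difference, genes called after global loss, after endothelial loss, larger after global loss, larger after endothelial loss, and called alike in both, which were 364, 1823, 17, 358, 6 and 7. Alike means called in both with the same sign, and the sizes could differ, as for *Klf2*. The cause of a change in a count was not tested.

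With no filter on low values they were 51, 1011, 0, 50, 1 and 0, over 29740 genes. With array weights they were 1006, 2794, 32, 982, 24 and 12. At a mean of at least 1 FPKM, 652 genes had a called difference, 643 of them larger after global loss. By limma-voom on recovered reads there were 569 differences, 561 of them larger after global loss, with 8 endothelial calls and 3 alike. With the tables fitted separately there were 89, of which 87 were larger after global and 2 after endothelial loss. A fixed total left 2 genes alike, with 434 differences. Without the robust option there were 5 endothelial calls and 1 gene alike, and with sex as a covariate 0 and 0. With detected genes as a covariate, 436 genes were called after global and 8 after endothelial loss, with 15 larger after endothelial loss and 1 alike.

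Without GLOko 1 and WT 4 there were 55 differences, 55 larger after global and 0 after endothelial loss, with 521 global calls and 4 alike. Without GLOko 1, GLOko 2 and GLOko 6 there were 70, 70 and 0. Without GLOko 1, GLOko 6 and ECko 3 there were 1159 global and 3 endothelial calls, 11 genes larger after endothelial loss and 1 alike. With a gene length correction, chosen after seeing the data, there were 14 differences, 13 and 1 of them larger after global and endothelial loss, and with GLOko 1, GLOko 2 and GLOko 6 left out as well there were 5, 5 and 0, with 3 alike. At an adjusted p of 0.1 or less 1254 differences passed, and 35 had a size of at least 1.

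No pairing of embryos by replicate number was seen: same-numbered embryos correlated at -0.05 to 0.09 (GLOko and WT, 1 of 6 best with its own number) and -0.09 to 0.11 (ECko and EChet, 2 of 7). Weak correlations of this kind cannot show that same-numbered embryos came from different litters. With a replicate block there were 300 differences, 949 global and 0 endothelial calls and 0 alike, and with the block and a gene length correction 3 differences, 563 global and 0 endothelial calls, 3 and 0 larger after global and endothelial loss, and 0 alike.

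Leaving out 1 embryo at a time gave 14 to 1212 differences, 717 to 2508 global calls, 3 to 53 endothelial calls, 13 to 1200 genes larger after global and 1 to 17 larger after endothelial loss, 1 to 21 alike and 0 to 0 opposite. *Klf2* ranged from -4.20 to -3.56 after global and from -1.43 to -1.22 after endothelial loss, and *Traf7* from -2.99 to -2.78 and from -0.28 to -0.19.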
